A study of Mus musculus with 4 samples.

Results

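The rows described here are 1076 long noncoding RNA entries that lie away from every Ensembl gene row of the table they come from. They were taken from a deposited table of 62046 rows, of which 40546 carry NONCODE identifiers (a database of noncoding RNAs) and 21500 carry Ensembl gene identifiers. A NONCODE row was kept if it lay on chromosomes 1 to 19, overlapped no Ensembl row on either strand, was more than 5 kb from all of them and averaged at least 1 FPKM across all 4 libraries. FPKM is the number of sequenced fragments scaled to transcript length and to library size. Position alone gave 14223 rows, and the level kept 7.57% of them, so the members were chosen by position and by their mean level, which is described here without a test. A row could reach the mean through a single library or genotype. The difference between genotypes was not used in the choice.

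The libraries are total RNA of mouse bone marrow cells, labelled as bone marrow derived macrophages. All had been kept for 5 days in M-CSF, the cytokine that drives marrow progenitors towards macrophages. There were 2 libraries from wild type marrow and 2 from GM1082-/- marrow (GM1082 KO, below the knockout). Strain, age, sex and the kind of deletion are not given in the labels. The labels do not say either if libraries came from separate animals, so p-values measure only the spread between these libraries, which may be technical.

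Long intergenic noncoding RNAs are transcribed by RNA polymerase II and are usually capped, often spliced and mostly found at lower levels than messenger RNAs. Some act in the nucleus on neighbouring genes or on splicing, and others are best known as the primary transcripts from which microRNAs are cut. A microRNA is a short RNA that pairs through its seed, bases 2 to 8, with sites in messenger RNAs and lowers their translation or stability. In the myeloid lineage the transcription factor PU.1, encoded by Spi1, binds a purine-rich sequence at many promoters and enhancers.

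Among the members, 7 rows held whole RefSeq microRNA hairpins on their own strand, 17 microRNA genes in all. The mature sequences below are shown because they are the named products that these otherwise unnamed rows can carry. They are those of RefSeq (GRCm38.p6), 5′ to 3′, with the seed in capitals. The levels given later are those of the long rows, not of the mature microRNAs.
let-7a-5p: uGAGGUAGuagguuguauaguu
let-7d-5p: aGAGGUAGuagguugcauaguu
let-7f-5p: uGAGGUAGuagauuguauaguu
miR-17-5p: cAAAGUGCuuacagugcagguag
miR-20a-5p: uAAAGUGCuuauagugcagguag
miR-18a-5p: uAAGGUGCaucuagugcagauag
miR-19a-3p: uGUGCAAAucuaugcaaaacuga
miR-19b-3p: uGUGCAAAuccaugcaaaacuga
miR-92a-3p: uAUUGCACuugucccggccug
miR-146a-5p: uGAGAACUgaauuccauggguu
miR-181a-5p: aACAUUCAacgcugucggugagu
miR-181b-5p: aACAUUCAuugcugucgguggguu

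The let-7 sequences share the seed GAGGUAG and come from NONMMUG010915.3 on chromosome 13. The next 6 sequences come from NONMMUG013779.3 on chromosome 14, which holds the miR-17-92 cluster with 4 different seeds. Within that row miR-17-5p and miR-20a-5p share AAAGUGC, miR-19a-3p and miR-19b-3p share GUGCAAA, and miR-18a-5p and miR-92a-3p each have their own. The miR-181 sequences share ACAUUCA and come from NONMMUG001905.2 on chromosome 1, while miR-146a-5p comes from NONMMUG005850.2 on chromosome 11. The remaining hairpins were those of miR-202 and miR-7686 in NONMMUG039587.2, miR-296 and miR-298 in NONMMUG025748.2, and miR-6516 in NONMMUG008177.2.

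Promoter sequence was taken from RefSeq, 250 bases before to 50 after a gene's start (GRCm38.p6). A RefSeq start on the same strand lay within 100 bp of the start of 37 members, and these are the promoters searched. Each promoter was searched on both strands for GAGGAAGT (PU.1), TGANTCA (AP-1) and TATAAA, motifs whose matches did not overlap in the promoters shown. GAGGAAGT was found in 7 of the 37, which is 18.9%, against 3.2% of all 32851 RefSeq promoters. TGANTCA was found in 1 (2.7%, against 7.81%) and TATAAA in 5 (13.5%, against 13.6%). A match describes the letters and not a bound site. Malat1 is shown as the most abundant member, 4833407H14Rik and Gm19951 as examples of the 7 members with a PU.1 match. The letters of their match (on the strand opposite the gene, so printed as the reverse complement) are in capitals. Neither is the most abundant of the 7, since NONMMUG092591.1 (Gm31619) had a mean of 7.06 FPKM. Values per library are given below for the members shown only.
Malat1, NONMMUG020671.2, chr19:5802623-5802922, minus strand: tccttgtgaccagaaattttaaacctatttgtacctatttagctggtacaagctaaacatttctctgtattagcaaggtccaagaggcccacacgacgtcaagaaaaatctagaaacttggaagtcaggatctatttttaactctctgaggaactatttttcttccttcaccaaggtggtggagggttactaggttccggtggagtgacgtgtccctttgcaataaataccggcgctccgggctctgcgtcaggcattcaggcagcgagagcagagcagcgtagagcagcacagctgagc
4833407H14Rik, NONMMUG021605.2, chr19:53460372-53460671, plus strand: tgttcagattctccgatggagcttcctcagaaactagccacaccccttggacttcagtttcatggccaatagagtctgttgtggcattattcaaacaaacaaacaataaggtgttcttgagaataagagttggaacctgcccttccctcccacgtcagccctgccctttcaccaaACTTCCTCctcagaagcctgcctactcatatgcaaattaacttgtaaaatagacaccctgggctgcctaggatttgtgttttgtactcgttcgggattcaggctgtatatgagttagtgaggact
Gm19951, NONMMUG009750.3, chr12:99642846-99643145, plus strand: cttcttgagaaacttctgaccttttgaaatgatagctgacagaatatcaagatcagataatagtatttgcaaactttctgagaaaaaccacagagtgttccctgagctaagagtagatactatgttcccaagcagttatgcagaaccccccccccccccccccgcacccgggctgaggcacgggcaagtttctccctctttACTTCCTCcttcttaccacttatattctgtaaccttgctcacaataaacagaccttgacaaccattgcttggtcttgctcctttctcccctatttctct

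The match began at position -75 from the start of 4833407H14Rik and at position -49 from that of Gm19951. NONMMUG021605.2 stood at 4.34 and 3.91 FPKM in the wild-type libraries against 4.02 and 3.97 in the knockout libraries (replicate 1, then replicate 2, here and below), so the genotypes overlapped. NONMMUG009750.3 stood at 6.67 and 5.56 FPKM in the wild-type libraries against 4.38 and 4.36 in the knockout libraries, without overlap, and did not pass (log2 change -0.40, SE 0.14, limma adjusted p = 0.859). Spi1 itself was at 83.2 and 87.8 FPKM in the wild-type libraries against 97.2 and 77.9 in the knockout libraries.

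The label was checked first. By position in RefSeq, 585 members (54.4%) overlapped no RefSeq gene, 355 (33.0%) overlapped a long noncoding RNA, 26 a pseudogene and 9 another kind of gene. Another 101 members (9.39%) overlapped a RefSeq protein-coding gene, 61 genes in all. Of those genes 40 also have an Ensembl row in the table and 21 have none, so for these members "far from genes" holds for the Ensembl spans in the table and not for RefSeq. Only 49 members matched a RefSeq gene with a reciprocal overlap of at least 0.9.

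Depth was read from the low values, where FPKM times span fell on whole fragments. In a row of 1 kb, 1 FPKM corresponded to 19.1 fragments in each wild-type library, 17.7 in knockout replicate 1 and 18.1 in knockout replicate 2. The targeted gene has a row at the RefSeq position of Arhgap33os, whose synonym is Gm1082. It was at 0.0792 and 0.0198 FPKM in the wild-type libraries against 0.0639 and 0.0624 in the knockout replicates, too low to check the labels. All 8 macrophage markers on the list were detected above 1 FPKM, with summed levels of 501 to 544 FPKM per library. All 8 neutrophil markers were too, at 16985 and 15981 FPKM in the wild-type libraries against 20996 and 18113 in the knockout libraries. The 6 B cell markers summed to 114 to 171 FPKM, the erythroid markers to 12.6 to 16.2 and those of T or NK cells to 2.61 to 4.08. In bulk RNA, fewer cells of a type and less RNA per cell cannot be told apart.

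Whole fragments in all 4 libraries, within 0.05 of a whole number, were found for 723 members (67.2%), as rows of 1 exon would give. These rows rested on few reads, with a median of 41.25 fragments per library, quartiles of 23.75 and 80.5, and a range from 4.5 to 1519. The share was 89.4% of the 47 members spanning up to 400 bp, 77.5% of the 395 spanning 1001 to 3000 bp, and 1% of the 100 members longer than 10000 bp. Among these 723 members, 21.4% differed between the wild-type libraries by more than a 95% counting range allows, and 21.9% did so between the knockout libraries. That range covers counting error only.

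Most members were short, and 440 of the 1076 stood within 10 kb of an Ensembl row. Their spans had a median of 1421.5 bp and ran from 206 to 221887 bp. The distance to the nearest Ensembl row had a median of 12288.5 bp, with quartiles of 7290 and 27656 bp. The nearest gene was most often on the same strand with the member beyond its 3′ end, as it was for 442 members (41.1%), against 37.3% of the far rows under 1 FPKM. That share was 53.4% of the 440 members up to 10 kb away, 33.7% of the 279 at 10 to 20 kb and 30.0% of the 217 at 20 to 50 kb. Of the nearest Ensembl rows, 79.8% reached 1 FPKM, against 66.5% for far rows under the minimum. Across members, the Spearman rho between a member's level and that of its nearest row was -0.016 (n = 1076, with 601 nearest rows and the libraries shared).

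Many members lay near another member, which was not set against the spacing of other rows. Chained over gaps of at most 10 kb they formed 612 groups, with 410 members alone and 666 in 202 groups of 2 or more. There were 29 groups of 5 or more, with 217 members in all. Another member was overlapped by 171 of them, 92 on the same strand. Only spans were compared, so such rows may share reads and may not be separate measurements. Chromosome 2 held most members, 106, and chromosome 9 fewest, 28.

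A few rows held a large share of the summed level. Mean levels ran from 1.00 to 427 FPKM with a median of 1.82. At least 2 FPKM was reached by 479 members, at least 10 FPKM by 55, at least 50 FPKM by 5 and at least 100 FPKM by 3. Together the members held 1.35% and 1.27% of all summed FPKM in the wild-type libraries, against 1.38% and 1.28% in the knockout libraries. The 3 most abundant rows made up 16.1% and 15.8% of the members' sum in wild type and 26.2% and 18.4% in the knockout. Without them the sums were 3587 and 3390 FPKM in the wild-type libraries and 3304 and 3331 in the knockout libraries.

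**Figure D1:**
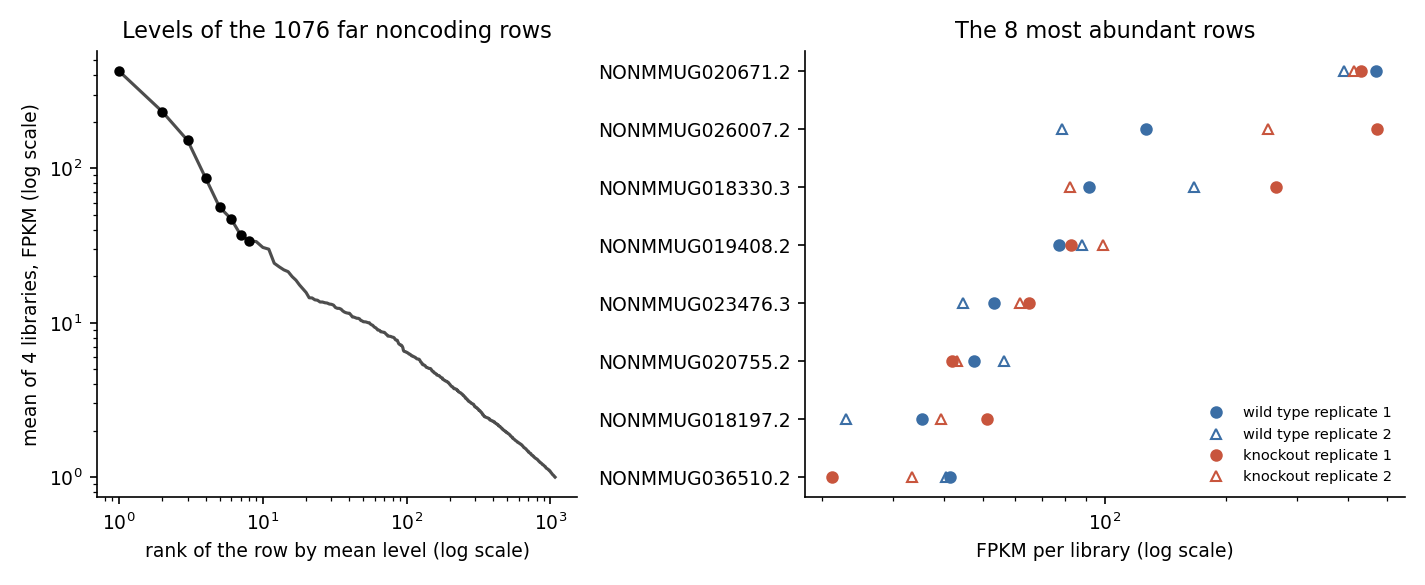
Left, mean level of the 4 libraries in FPKM against rank for the 1076 far noncoding rows, both axes logarithmic, with the 8 most abundant as black points. Right, the level of these 8 rows in each library on a logarithmic FPKM axis (blue wild type, red knockout, filled circles replicate 1, open triangles replicate 2); the libraries of NONMMUG020671.2 lie between 392 and 469 FPKM, and those of NONMMUG026007.2 between 78.6 and 474 FPKM.

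NONMMUG020671.2, the most abundant, covers Malat1 on chromosome 19 (5795076 to 5802772, minus strand). Malat1 is a nuclear RNA of speckles that is abundant in most mammalian cells. It stood at 469 and 392 FPKM in the wild-type libraries against 432 and 415 in the knockout libraries. The genotypes overlapped, with a log2 change of -0.02 (SE 0.14).

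NONMMUG026007.2 spans 5860338 to 6049710 on the plus strand of chromosome 3, overlaps no RefSeq gene and is 109043 bp from Gm8797. It stood at 127 and 78.6 FPKM in the wild-type libraries against 474 and 253 in the knockout libraries. Each knockout library exceeded each wild-type library, the wild-type values differed from each other as did the knockout values, and the difference did not pass (log2 change 1.79, SE 0.34, limma adjusted p = 0.537).

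NONMMUG018330.3 on chromosome 17 (39842997 to 40064883) contains Rn18s-rs5, a sequence related to 18S ribosomal RNA, the noncoding RNA gene AY036118 and the gene Esp38. It stood at 91.6 and 167 FPKM in the wild-type libraries against 266 and 82.0 in the knockout libraries, with knockout replicates 1 and 2 as the highest and the lowest library. Reads from repeated ribosomal sequence cannot be assigned to a single copy, and this level is uncertain.

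Of the other abundant rows, 2 lie inside RefSeq pseudogenes. NONMMUG019408.2 on chromosome 18 (16274648 to 16274944), within Gm7665, stood at 77.3 and 87.9 FPKM in the wild-type libraries against 82.8 and 99.1 in the knockout libraries, or 438, 498, 436 and 534 fragments. NONMMUG036510.2 on chromosome 6 (122456904 to 122457374), within the ribosomal protein pseudogene Rps27a-ps3 in Rimklb, stood at 41.4 and 40.5 FPKM in the wild-type libraries against 21.2 and 33.3 in the knockout libraries. The knockout libraries of the latter were both lower, without passing (log2 change -0.60, SE 0.21, limma adjusted p = 0.846). Reads of pseudogenes may be shared with their parent genes and with other copies, so both levels are uncertain.

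NONMMUG023476.3 on chromosome 2 (75637801 to 75651488) ends 7773 bp upstream of Hnrnpa3, which encodes an RNA-binding protein. It stood at 53.3 and 44.6 FPKM in the wild-type libraries against 64.9 and 61.6 in the knockout libraries, while Hnrnpa3 itself was at 5.67 to 7.73 FPKM over the 4 libraries. NONMMUG020755.2 on chromosome 19 (8019559 to 8020611) overlaps no RefSeq gene and is 350766 bp from the nearest Ensembl row. It stood at 47.7 and 56.5 FPKM in the wild-type libraries against 41.9 and 43.1 in the knockout libraries, or 957, 1135, 781 and 823 fragments. NONMMUG018197.2 on chromosome 17 (35480139 to 35480728) lies 5576 bp beyond H2-Q10, a gene of the class I histocompatibility family whose members resemble each other. It stood at 35.2 and 23.0 FPKM in the wild-type libraries against 51.2 and 39.3 in the knockout libraries. In each of these 3 rows the genotypes did not overlap, and none passed (limma adjusted p = 0.846, 0.970 and 0.878).

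The farthest members differed widely in level. NONMMUG032885.2 on chromosome 5 (84123313 to 84123591) is 1785664 bp from the nearest Ensembl row, and in RefSeq it lies within Epha5 and the pseudogene Hmgn2-ps1. It stood at 23.9 and 24.8 FPKM in the wild-type libraries against 25.1 and 23.5 in the knockout libraries, or 127, 132, 124 and 119 fragments. These values were nearly level over the 4 libraries. Next came the miR-17-92 row and, beside it, NONMMUG090229.1 (chromosome 14, 115041343 to 115041565), which had a mean of 1.10 FPKM and rested on 1 and 6 fragments in wild type and 6 and 5 in the knockout.

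Several members are named genes in RefSeq. Of a list of 37 noncoding RNAs, 4 matched a member by position and 3 more (Lockd, Mir17hg and Pvt1) were touched in part. Besides Malat1, the matches were Mirt1, Trp53cor1 and Ptgs2os2. Ptgs2os2, also called lincRNA-Cox2, is induced by Toll-like receptor ligands in mouse macrophages. Its row, NONMMUG001994.2 (chromosome 1, 150159043 to 150165423, minus strand), stood at 2.24 and 2.15 FPKM in the wild-type libraries against 1.88 and 2.08 in the knockout libraries. Trp53cor1, or lincRNA-p21, is a p53 target beside Cdkn1a, the gene of the cell-cycle inhibitor p21. Its row, NONMMUG017913.2, stood at 3.08 and 2.11 FPKM in the wild-type libraries against 2.65 and 1.73 in the knockout libraries, and Cdkn1a was at 106, 86.9, 110 and 83.7 FPKM in the same order. The Mirt1 row, NONMMUG021602.3, stood at 8.74 and 6.51 FPKM in the wild-type libraries against 8.65 and 6.95 in the knockout libraries. In Mirt1 and Trp53cor1 replicate 1 was the higher library of each genotype.

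The next most abundant members with a RefSeq match were less studied genes. NONMMUG022642.2 (Gm39792, chromosome 2) stood at 19.1 and 15.6 FPKM in the wild-type libraries against 24.4 and 16.3 in the knockout libraries, with overlap. NONMMUG014402.2 (AU022793, chromosome 15) stood at 12.1 and 14.7 FPKM in the wild-type libraries against 8.91 and 11.2 in the knockout libraries. On chromosome 6 NONMMUG035965.3 (4930512J16Rik, minus strand) was at 15.0 and 16.0 FPKM in the wild-type libraries against 10.02 and 13.6 in the knockout libraries. NONMMUG035966.2 (Gm36735), which lies inside it on the opposite strand, was at 12.4, 13.8, 8.36 and 11.5 FPKM in that order. Reads of this overlapping pair cannot be told apart if strand was not used in counting, which is not given. The last 3 rows were lower in both knockout libraries and failed the adjusted threshold (limma, p from 0.934 to 0.971).

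The rows that hold microRNA hairpins stood between 0.755 and 5.23 FPKM over all libraries. These rows were singled out after their values were seen. NONMMUG010915.3, the let-7 row (chromosome 13, 48531864 to 48546510, minus strand), stood at 4.47 and 4.85 FPKM in the wild-type libraries against 4.35 and 5.23 in the knockout libraries. let-7 microRNAs are widespread in differentiated cells and restrain growth-promoting genes. NONMMUG013779.3, the miR-17-92 row (chromosome 14, 115042879 to 115046729, plus strand), stood at 3.54 and 3.64 FPKM in the wild-type libraries against 2.60 and 4.27 in the knockout libraries. That cluster is known for promoting proliferation, and it overlaps RefSeq's Mir17hg. Wild type lay between the knockout libraries in both rows.

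NONMMUG005850.2 carries miR-146a, which restrains Toll-like receptor signalling in myeloid cells (chromosome 11, 43370962 to 43374514, minus strand). It stood at 2.27 and 2.11 FPKM in the wild-type libraries against 2.22 and 2.45 in the knockout libraries, or 154, 143, 140 and 158 fragments. NONMMUG001905.2 carries miR-181a-1 and miR-181b-1, known from lymphocyte development (chromosome 1, 137966455 to 137969918, plus strand). It stood at 1.80 and 2.16 FPKM in the wild-type libraries against 1.53 and 1.85 in the knockout libraries. Genotypes overlapped in all 7 rows and log2 changes lay between -0.15 and 0.24. NONMMUG034884.2, beside Lncpint, shares only 2 bases with the hairpin of miR-29b-1 and was not counted. It stood at 9.86 and 7.65 FPKM in the wild-type libraries against 9.08 and 10.5 in the knockout libraries.

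**Figure D2:**
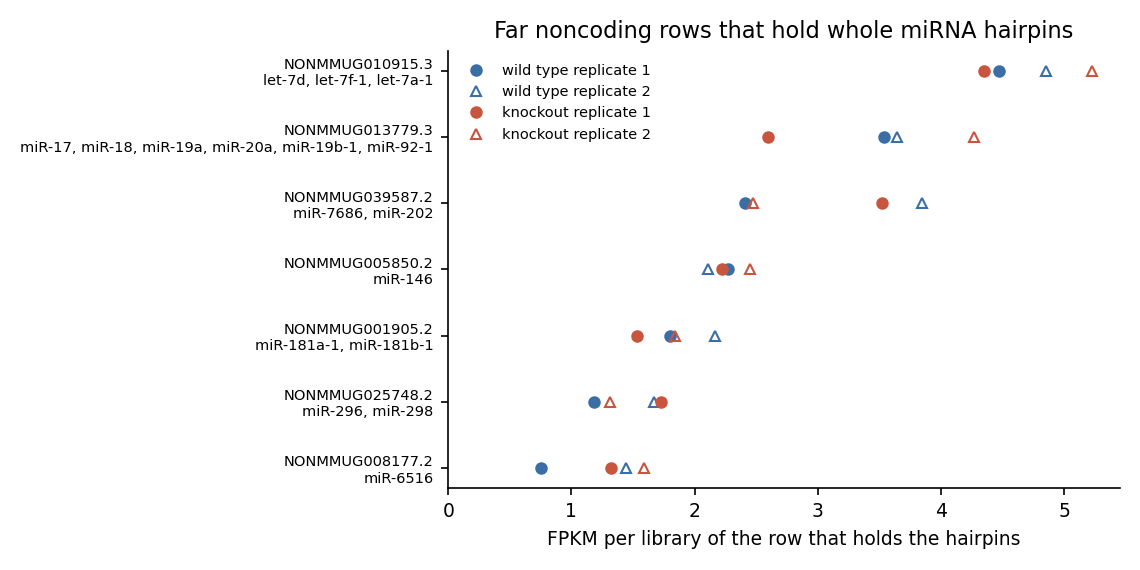
Level in FPKM of the 7 rows that hold whole microRNA hairpins, in each library (blue wild type, red knockout, filled circles replicate 1, open triangles replicate 2), with the microRNA genes under each row's identifier as RefSeq names them. The let-7 row at the top lies between 4.35 and 5.23 FPKM, and in every row the genotypes overlap.

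Genotypes were compared over all 24535 rows that averaged at least 1 FPKM, with limma on log2(FPKM + 1), a scale that understates changes of low rows. None of the 1076 members passed an adjusted p of 0.05, where 0.0122% of all rows did, and the smallest adjusted p of a member was 0.237. At an unadjusted p below 0.05 there were 93 members (8.64%), against 5.36% of all rows. Of these, 30 were higher in the knockout (2.79%, against 2.5% of all rows) and 63 were lower (5.86%, against 2.85%). Each knockout library exceeded each wild-type library in 116 members (10.8%, against 13.2%) and below them in 251 (23.3%, against 17.7%). The share higher was near the background, and the share lower was above it. Of the other NONCODE rows, 5.37% of the antisense rows were lower at an unadjusted p below 0.05. That share was 4.02% of the rows within 5 kb and 2.59% of those overlapping a gene on the same strand. Lower without overlap between genotypes were 20.2%, 18.8% and 22.9% of these classes, in the same order, so a raised lower share was not particular to the members. Without wild-type replicate 1 there were 51 higher (4.74% of the members, against 2.53% of all rows) and 55 lower (5.11%, against 2.38%), so the nearness of the higher share to the background rests on that library.

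The members as a whole lay slightly lower in the knockout. Their median log2 change was -0.066, against -0.010 over all rows, and 658 (61.2%) had a lower knockout mean, against 52.5% of all rows. Without wild-type replicate 1 the medians were -0.0327 for the members and -0.017 for all rows. Of the other NONCODE rows at this level, the 6144 that overlap a gene on the same strand had a median of -0.044 with 60.7% lower, the 3242 antisense rows -0.029 with 56.2% and the 1219 rows within 5 kb -0.025 with 55.0%. Ensembl rows had a median of 0.011 with 46.5% lower. Within a genotype, the library medians of the members had a pooled SD of 0.0266 on the same scale. For single rows, the median absolute difference between the libraries of a genotype was 0.208 (log2) in wild type and 0.227 in the knockout among the members, and 0.146 and 0.179 among all rows. Members overlapping one another are counted separately here, and no test of the classes against each other was made.

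**Figure D3:**
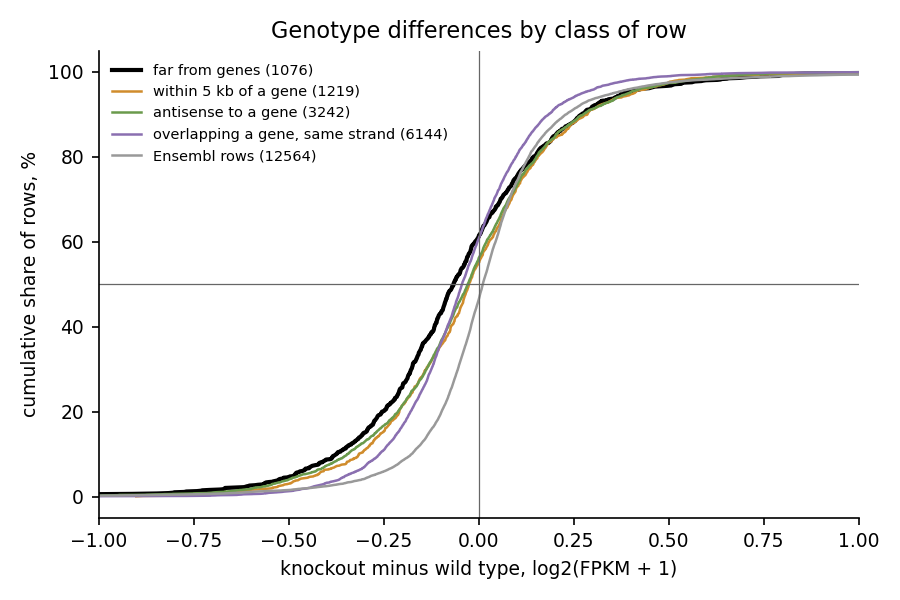
Cumulative share of rows in percent against the genotype difference, knockout minus wild type in log2(FPKM + 1), for the 1076 far noncoding rows (black) and the other classes of row at this level. The black curve crosses 50% at -0.066, the leftmost of the classes shown, and the Ensembl rows cross it at 0.011; the axis ends at -1 and 1.

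Of a member and its nearest Ensembl row, both at 1 FPKM or more in 859 cases, 475 (55.3%) had the same sign of difference. The Spearman rho of the differences was 0.158 over these 859, which share libraries and often a neighbour. The member nearest to the targeted gene on chromosome 7 was NONMMUG037657.2, 120546 bp away, and the next was NONMMUG078292.1, 310575 bp away. NONMMUG078292.1 stood at 2.10 and 2.20 FPKM in the wild-type libraries against 1.39 and 1.95 in the knockout libraries.

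The 6 members taken as lower by their unadjusted p did not pass, and in each both knockout libraries lay below both wild-type libraries. NONMMUG068729.1, within the RefSeq noncoding gene Gm46770 on chromosome 2 (148520918 to 148547613), had the smallest p of all members. It stood at 3.05 and 2.78 FPKM in the wild-type libraries against 0.570 and 0.417 in the knockout libraries (log2 change -1.39, SE 0.16, limma adjusted p = 0.237). NONMMUG055564.1, within Gm46401 and 104694 bp from the transcription factor gene Klf6 (chromosome 13, 5975088 to 5978970), stood at 1.68 and 2.42 FPKM in the wild-type libraries against 0.201 and 0.588 in the knockout libraries (log2 change -1.13, SE 0.22). Klf6 itself stood at 90.5 and 80.2 FPKM in the wild-type libraries against 74.4 and 76.5 in the knockout libraries.

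NONMMUG037657.2, the member nearest to the targeted gene, overlaps the noncoding gene Gm42376 (chromosome 7, 30392247 to 30394576, minus strand). It stood at 7.44 and 8.09 FPKM in the wild-type libraries against 4.01 and 4.59 in the knockout libraries (log2 change -0.73, SE 0.13, limma adjusted p = 0.522). Its nearest Ensembl row, 19184 bp away, is Tyrobp, which encodes the myeloid signalling adaptor DAP12. Tyrobp was at 434 and 423 FPKM in the wild-type libraries against 535 and 397 in the knockout libraries, so its genotypes overlapped.

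Both members of a chromosome 8 pair were among the lower 6, and both lie within the RefSeq noncoding gene Gm30605. NONMMUG080949.1 (80328685 to 80329690, plus strand) stood at 9.85 and 10.8 FPKM in the wild-type libraries against 5.72 and 5.81 in the knockout libraries, or 189, 207, 102 and 106 fragments. NONMMUG082636.1 (80318763 to 80325585, minus strand) stood at 11.0005 and 9.16 FPKM in the wild-type libraries against 5.52 and 5.14 in the knockout libraries. Their log2 changes were -0.74 (SE 0.12, limma adjusted p = 0.445) and -0.80 (SE 0.14, adjusted p = 0.459). A further member in Gm30605, NONMMUG080950.1, was at 7.98 and 7.42 FPKM in the wild-type libraries against 7.64 and 6.99 in the knockout libraries, and its genotypes overlapped.

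The last of the lower 6, NONMMUG067396.1, belongs to a group of 6 members on the plus strand of chromosome 2 (118554970 to 118582181) between Bmf and Gm14016. All 6 were lower in both knockout libraries, 5 of them at an unadjusted p below 0.05, with a median log2 change of -0.64. NONMMUG067396.1 stood at 6.77 and 6.29 FPKM in the wild-type libraries against 2.29 and 2.98 in the knockout libraries, or 86, 80, 27 and 36 fragments (log2 change -1.06, SE 0.15, limma adjusted p = 0.370). NONMMUG024278.2, which spans the other 5 and may share reads with them, stood at 10.8 and 9.49 FPKM in the wild-type libraries against 5.66 and 6.38 in the knockout libraries. These rows may therefore not be independent of each other.

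The 4 remaining rows of that group lie one after the other without overlap. NONMMUG067395.1 was at 6.73 and 6.50 FPKM in the wild-type libraries against 3.42 and 4.66 in the knockout libraries. NONMMUG067397.1 was at 4.38 and 4.85 FPKM in the wild-type libraries against 3.12 and 2.83 in the knockout libraries. NONMMUG067398.1, the longest of them, was at 2.21 and 1.75 FPKM in the wild-type libraries against 1.56 and 1.05 in the knockout libraries, or 273, 216, 179 and 124 fragments. The last, NONMMUG067399.1, rested on 40 and 46 fragments in wild type against 18 and 14 in the knockout, and did not pass (limma adjusted p = 0.537). Bmf, a gene of the BCL2 family that promotes cell death, lies 5283 bp away on the opposite strand and stood at 15.1 and 13.4 FPKM in the wild-type libraries against 11.5 and 9.81 in the knockout libraries (limma adjusted p = 0.857). On the other side Bub1b, a gene of the spindle checkpoint, was at 22.7 and 26.3 FPKM in the wild-type libraries against 23.5 and 29.1 in the knockout libraries.

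Of the 6 members taken as higher, none passed either. NONMMUG026007.2, described above, had the largest level and change. NONMMUG020548.2, inside Gm41800 (chromosome 18, 89836019 to 89839510), stood at 3.58 and 3.42 FPKM in the wild-type libraries against 6.63 and 5.87 in the knockout libraries (log2 change 0.69, SE 0.13, limma adjusted p = 0.537). NONMMUG031288.2 on chromosome 4 (145774590 to 145784052), whose start overlaps the pseudogenes Gm13243 and Vmn2r-ps15, stood at 1.59 and 1.01 FPKM in the wild-type libraries against 3.19 and 3.79 in the knockout libraries. NONMMUG028132.2 on chromosome 3 (143017660 to 143040752) covers the RefSeq gene 4930519L02Rik and is among the members that overlap a RefSeq protein-coding gene. It stood at 0.706 and 1.29 FPKM in the wild-type libraries against 2.34 and 2.54 in the knockout libraries. Over the 12 members named as higher or lower, adjusted p lay between 0.237 and 0.672.

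**Figure D4:**
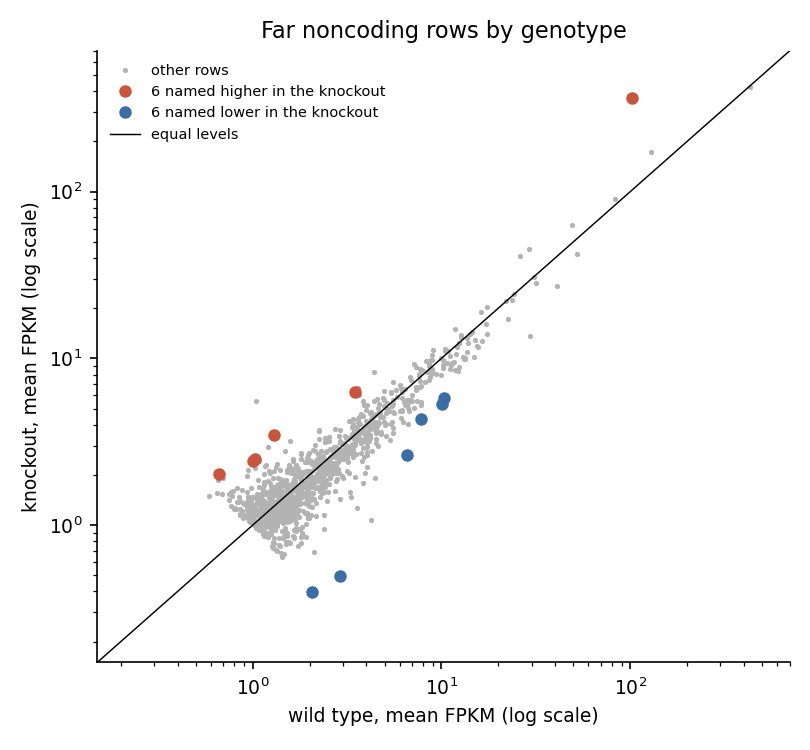
Mean FPKM of the knockout libraries against that of the wild-type libraries for each of the 1076 far noncoding rows, both axes logarithmic, with the line of equal levels; red and blue mark the 6 rows named as higher and the 6 named as lower. NONMMUG026007.2 is the red point at the top right, and NONMMUG068729.1 and NONMMUG055564.1 are the blue points farthest below the line; 2 red points near 1 FPKM in wild type almost coincide.

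The other named higher rows, NONMMUG053193.1 and NONMMUG088948.1, belong to a group of 9 members on chromosome 11 (70358138 to 70376707) between Alox15 and Pelp1. RefSeq draws Alox15 longer than the table does, from 70344147 to 70390538 against 70344152 to 70352031, and all 9 lie inside the longer span. Alox15 encodes a 12/15-lipoxygenase found in mouse eosinophils and some resident macrophages. All 9 had a higher mean in the knockout, 7 without overlap and 4 at an unadjusted p below 0.05, with a median log2 change of 0.74. NONMMUG053197.1 lies inside NONMMUG053196.1 on the same strand and may share reads with it, so the 9 rows may not all be separate measurements.

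In these rows counts were small. NONMMUG053193.1 rested on 9 and 9 fragments in wild type and on 21 and 31 in the knockout (log2 change 0.86, SE 0.18, limma adjusted p = 0.537). NONMMUG088948.1 rested on 13 and 21 fragments in wild type and on 36 and 42 in the knockout (log2 change 0.80, SE 0.18, limma adjusted p = 0.589). NONMMUG053200.1 had 10, 8, 25 and 22 fragments and NONMMUG006594.2, on the plus strand, 9, 7, 19 and 24, both in the order wild-type then knockout replicates. NONMMUG053195.1, in the middle of the group, had 29, 19, 24 and 27 and overlapped between genotypes.

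Summed over the 9 rows, with both rows of the overlapping pair included, levels were 7.35 and 10.1 FPKM in the wild-type libraries. In the knockout libraries they were 15.7 and 18.6 FPKM. Alox15 itself stood at 18.9 and 18.5 FPKM in the wild-type libraries against 47.9 and 34.4 in the knockout libraries (log2 change 1.08, SE 0.17, limma adjusted p = 0.426). Pelp1, on the other side, was at 7.79 and 11.3 FPKM in the wild-type libraries against 10.3 and 10.1 in the knockout libraries. All 6 listed markers of mast cells, basophils or eosinophils reached 1 FPKM, none was at 0 and 6 of 6 had higher means in the knockout. They summed to 98.1 and 114 FPKM in wild type and to 239 and 123 in the knockout, and their part in the result was not tested. Higher means in the knockout were also found for 8 of 8 neutrophil, 5 of 6 B cell and 3 of 8 macrophage markers. For T or NK cells it was 2 of 6 and for erythroid cells 1 of 6, while 47.5% of all rows fitted were higher.

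**Figure D5:**
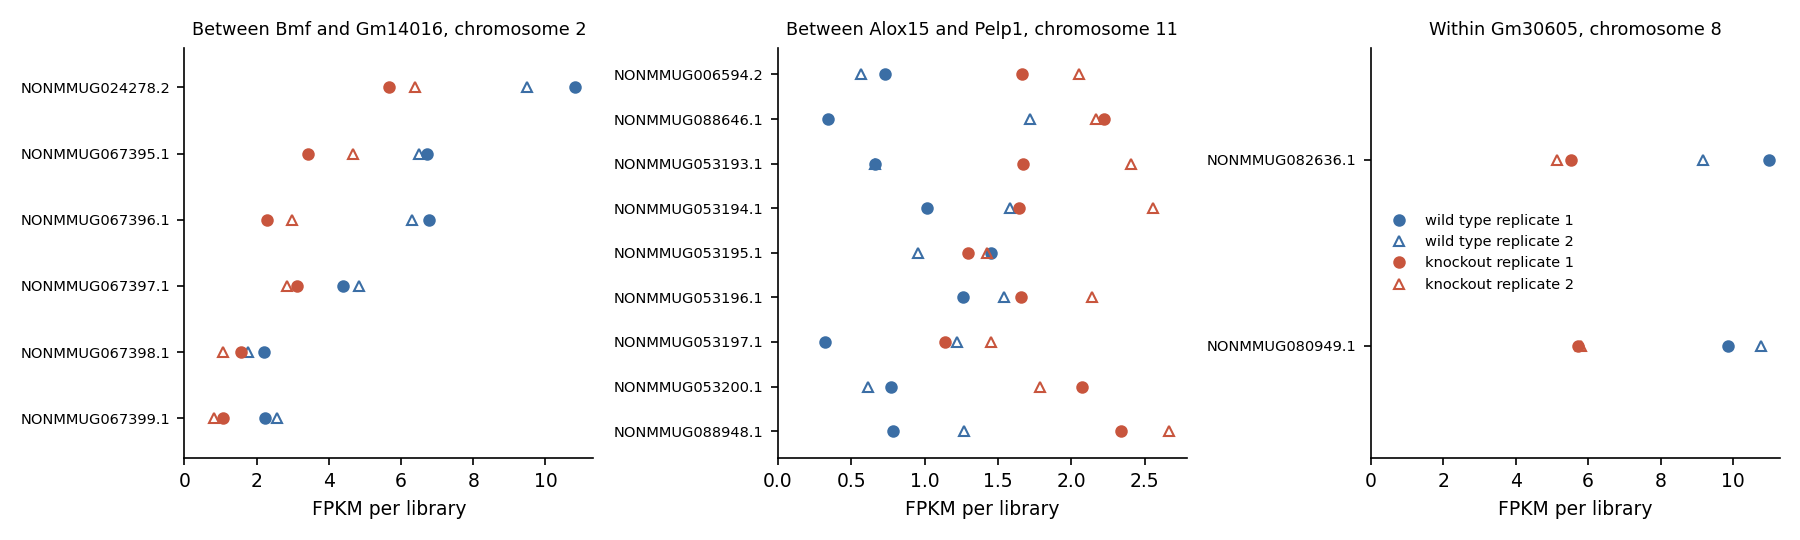
Level in FPKM in each library for the 6 members between Bmf and Gm14016 (left), the 9 between Alox15 and Pelp1 (middle) and the pair within Gm30605 (right), in order of position from the top (blue wild type, red knockout, filled circles replicate 1, open triangles replicate 2). The knockout libraries lie below the wild-type libraries in all 6 rows on the left and both on the right, and above them in 7 of the 9 in the middle; each horizontal axis starts at 0 and has its own scale.

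Most groups held members on both sides. Of 104 groups of 3 or more members, 26 had all members lower in the knockout mean and 8 had all higher. Among all members 61.2% were lower, and the group counts were not tested against that share. At least 2 members at an unadjusted p below 0.05 were found in 6 groups, with 17 such members in all.

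The largest groups were mixed. On chromosome 6 (39264571 to 39328786) 16 members lay between Kdm7a and Slc37a3, 8 higher and 8 lower. Its most abundant rows were NONMMUG035099.2 at 6.72 and 11.03 FPKM in the wild-type libraries against 8.12 and 8.37 in the knockout libraries, NONMMUG076543.1 at 7.40, 6.33, 7.34 and 7.52 FPKM, and NONMMUG094535.1 at 7.42, 8.15, 6.28 and 4.60 FPKM. Only the last of these 3 did not overlap between genotypes. On chromosome 15 (85655666 to 85703298) 12 members lay upstream of Ppara, a nuclear receptor gene that was listed at 0 in 3 of the libraries and at 0.0144 FPKM in the other. In that group 6 were higher and 6 lower. NONMMUG060163.1 led it at 5.31 and 3.18 FPKM in the wild-type libraries against 4.70 and 4.53 in the knockout libraries, followed by NONMMUG015146.2 and NONMMUG060982.1.

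On chromosome 11 (20453070 to 20538228) 12 members lay between Gm12034 and Sertad2, 10 of them lower and 7 of these without overlap. NONMMUG005434.2 stood at 6.55 and 6.70 FPKM in the wild-type libraries against 5.04 and 5.87 in the knockout libraries, and NONMMUG005433.2 (Gm39606) at 3.57, 3.78, 3.50 and 3.20 FPKM. NONMMUG052890.1 stood at 2.09 and 1.74 FPKM in the wild-type libraries against 1.43 and 0.952 in the knockout libraries, on 30, 25, 19 and 13 fragments. No member of this group had an unadjusted p below 0.05.

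Outside the largest 3, all 11 members of a chromosome 2 group between Mir133a-2 and Slco4a1 (180409092 to 180433508) had a lower knockout mean, with sums of 27.0 and 32.8 FPKM in wild type and 24.2 and 20.8 in the knockout. The 11 members beside Lncpint on chromosome 6 (31051681 to 31077258) summed to 98.5 and 85.2 FPKM in wild type and to 91.5 and 98.2 in the knockout, with overlap. Of the 11 members of a chromosome 10 group on the plus strand near Gm48282 (9979163 to 10025567), 9 had a higher and 2 a lower knockout mean, 4 were higher without overlap, and the median log2 change was 0.31. That group summed to 14.5 and 9.18 FPKM in wild type, against 15.6 and 16.1 in the knockout, and wild-type replicate 2 was the lowest library. These groups of 11 were picked for their size after the values were seen.

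Some members differed widely between the libraries of a genotype. NONMMUG030660.2 on chromosome 4 (127008744 to 127009390), 11934 bp from the splicing factor gene Sfpq, was listed at 0 in wild type and stood at 0.436 FPKM in knockout replicate 1 and 32.1 FPKM in replicate 2. It reached the minimum through that last library only. NONMMUG054103.1 (chromosome 12, 35701314 to 35702949) stood at 7.26 FPKM in wild-type replicate 1 and at 1.21, 1.30 and 0.848 FPKM in the other libraries. NONMMUG020553.2 on chromosome 19 (3083615 to 3087407) differed in every library, at 35.7 and 22.9 FPKM in the wild-type libraries against 17.8 and 9.30 in the knockout libraries (limma adjusted p = 0.805). These 3 were chosen after their values were seen.

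At the edges of the rule, NONMMUG003023.2 and NONMMUG077232.1 were the members just above the level limit, with means of 1.00 FPKM each, and NONMMUG054101.1 and NONMMUG080591.2 lay just under it at 0.997 and 0.996 FPKM. NONMMUG080720.1 and NONMMUG076415.1 were just beyond the distance limit at 5001 bp from Irf2 and Capza2, and NONMMUG021026.2 and NONMMUG070316.1 just within it at 4999 and 4997 bp. NONMMUG080720.1 stood at 1.63 and 3.22 FPKM in the wild-type libraries against 2.06 and 2.35 in the knockout libraries. NONMMUG021026.2, left out by 2 bases, stood at 2.64 and 2.25 FPKM in the wild-type libraries against 1.94 and 2.91 in the knockout libraries.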

How the data were processed

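The authors deposited a single table of FPKM values per gene row for 4 libraries, with position, strand and, for Ensembl rows, a symbol. The submitters' processing notes name Bowtie 0.12.2 and mm9. Not given in the sources used here are the program that counted fragments, its use of strand and how it placed multiply matching reads. Coordinates fit RefSeq positions on GRCm38, and are read as that build. All 24535 rows averaging at least 1 FPKM were fitted with limma 3.58.1 in R 4.3.3 on log2(FPKM + 1), genotype only, with a mean-variance trend (prior degrees of freedom 4.04) and Benjamini-Hochberg adjustment over all rows fitted. With 2 libraries against 2 the smallest exact two-sided permutation p is 0.333, so none was computed. Fragments were recovered from low FPKM values (81.5% to 81.9% of them whole within 0.05). Members named are the 8 most abundant, 6 per direction with the smallest unadjusted p without overlap and a higher mean of at least 2 FPKM, the 3 farthest, leading rows of the 3 largest groups, rows at the limits, and the 5 most abundant RefSeq matches; others are said to be chosen after their values were seen. Members and lists were chosen with earlier results of these data known. Member sequences themselves are not printed, as no genome was used here, and no sequence of chromosome 18 was used. Some neighbouring genes are not reported here.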

Additional observations from a re-analysis of the deposited data

How the results depend on the processing

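Counts and medians of the members were recomputed under 16 alternatives. With the replicate number as a block 1 member passed an adjusted p of 0.05 (NONMMUG026007.2, limma adjusted p = 0.0349). Replicate numbers do not pair the libraries by their labels, and the deviations of libraries with the same number had a correlation of 0.029 over members. Leaving out each library in turn gave 0 to 1 member past an adjusted p, 27 to 51 higher and 53 to 73 lower at an unadjusted p below 0.05, and medians of -0.0327 to -0.0855. The 51 came without wild-type replicate 1, where the median was -0.0327. The 1 came without wild-type replicate 2 and was NONMMUG054103.1 (adjusted p = 0.0316), whose level in wild-type replicate 1 is far above the others. A pseudocount of 0.1 gave a median of -0.093. Among the 479 members of at least 2 FPKM there were 15 higher (3.13%) and 38 lower (7.93%). Among the 140 more than 50 kb away there were 8 higher (5.71%) and 13 lower (9.29%). Fewer rows were counted in both, while these shares were above those of all rows, 2.5% higher and 2.85% lower. The other scalings, filters and variance settings kept counts within 1.5 times and medians within the spread between replicates. Added after seeing the data, the members outside RefSeq protein-coding genes gave 23 higher and 59 lower, and those overlapping no other member 29 and 49. For the members named as higher or lower, 143 values kept their direction and side of the threshold and 1 passed it newly. Other named rows changed direction between settings. The log2 change of NONMMUG018330.3 ran from -0.587 to 1.098 and that of NONMMUG035099.2 from -0.379 to 0.260. The median member with whole fragments rested on 41.25 fragments per library. Among such members, the median squared difference between libraries over the counting variance was 1.28 in wild type and 1.21 in the knockout. Counting alone would give 0.455. How far depth limits these rows was not tested.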
